A study of Mus musculus with 6 samples.

Results

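This account follows 10 genes of matrix breakdown and its control in the newborn mouse cornea: the matrix metalloproteinases Mmp2, Mmp14, Mmp9, Mmp3 and Mmp13, the inhibitors Timp1, Timp2 and Timp3, and the proteases Adamts1 and Adamts5. Members were probe sets that the array annotation pairs with exactly 1 of these symbols, and all 10 genes had 1 such probe set, among 19938 distinct symbols on the array. Whole corneas were taken at postnatal day 3 from 3 wild-type (WT) samples and from 3 samples of littermates carrying K14-DN-Clim. That transgene is driven by the keratin 14 promoter, which is active in basal cells of stratified epithelia, and its dominant-negative product blocks the CLIM proteins, cofactors that bind LIM domains. Whether each replicate came from 1 pup or several is not given in the labels, and p-values here cover only sample-to-sample spread, some of which may be technical. Wnt signalling and corneal epithelial stem cells are the subject in the title, and the comparison asks which genes differ when CLIM function is blocked.

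Matrix metalloproteinases are zinc enzymes, made as inactive precursors, that cut collagens and other matrix proteins. Tissue inhibitors of metalloproteinases (TIMPs) block their active site, and ADAMTS proteases cut proteoglycans of the matrix. In the cornea these enzymes are known for remodelling the stroma in development and wound repair. Mmp14 sits on the cell surface and, with Timp2 bound to it, activates the Mmp2 precursor, so that Timp2 is both an inhibitor and part of the activating complex.

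The arrays did not fall apart by genotype alone, and the arrays are therefore given one by one. Values are log2(intensity + 16), and differences are DN-Clim minus WT. Corneal markers were bright on all arrays: Krt12, the keratin of corneal epithelium, read 11.04 to 11.95 and Kera, a keratocyte proteoglycan, 11.96 to 13.09. The summed intensity of 18 lens genes reached 125763 and 129612 on the arrays of DN-Clim replicates 1 and 2, and lay between 5386 and 11110 on DN-Clim replicate 3 and the WT arrays. The summed intensity of 14 keratocyte and stromal genes was 26607 and 20805 on those 2 arrays, 49633 on DN-Clim replicate 3 and 51619 to 55903 in WT. No marker of either list was at 0. Probe sets of olfactory receptors, used below as a guide to dim signal, also gave signal, with a median of 7.03. Readings above 0 therefore do not show which cells were present. Over all tested probe sets, the correlation of DN-Clim replicate 3 with WT arrays was 0.949 to 0.962, against 0.928 and 0.9 with the other DN-Clim arrays. WT replicates 1 and 2 were nearer to DN-Clim replicate 3 than to the other DN-Clim arrays. WT replicate 3 was nearer to DN-Clim replicates 1 (0.965) and 2 (0.957) than to replicate 3 (0.949). Of the WT arrays it had the highest lens sum (11110) and the lowest stromal sum (51619). Array medians lay between 7.95 and 8.21.

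With all 6 arrays the mean of each of the 10 genes was lower in DN-Clim, though the sign of Mmp9 turned under other scalings, and 0 of the 10 passed the limma threshold (adjusted p from 0.651 to 0.999). Over all probe sets 3 passed, all lower, which is 0.0128%. At an unadjusted p under 0.05, 4 of the 10 were lower (Mmp2, Timp1, Timp2 and Timp3) and 0 higher, against 4.49% of all probe sets lower and 1.45% higher. The median difference of the 10 was -0.49, beside -0.04 over all 23410 probe sets, of which 57.2% lay below 0. For 2 genes, Timp1 and Timp3, no DN-Clim value reached the lowest WT value, as for 6.95% of all probe sets.

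**Figure D1:**
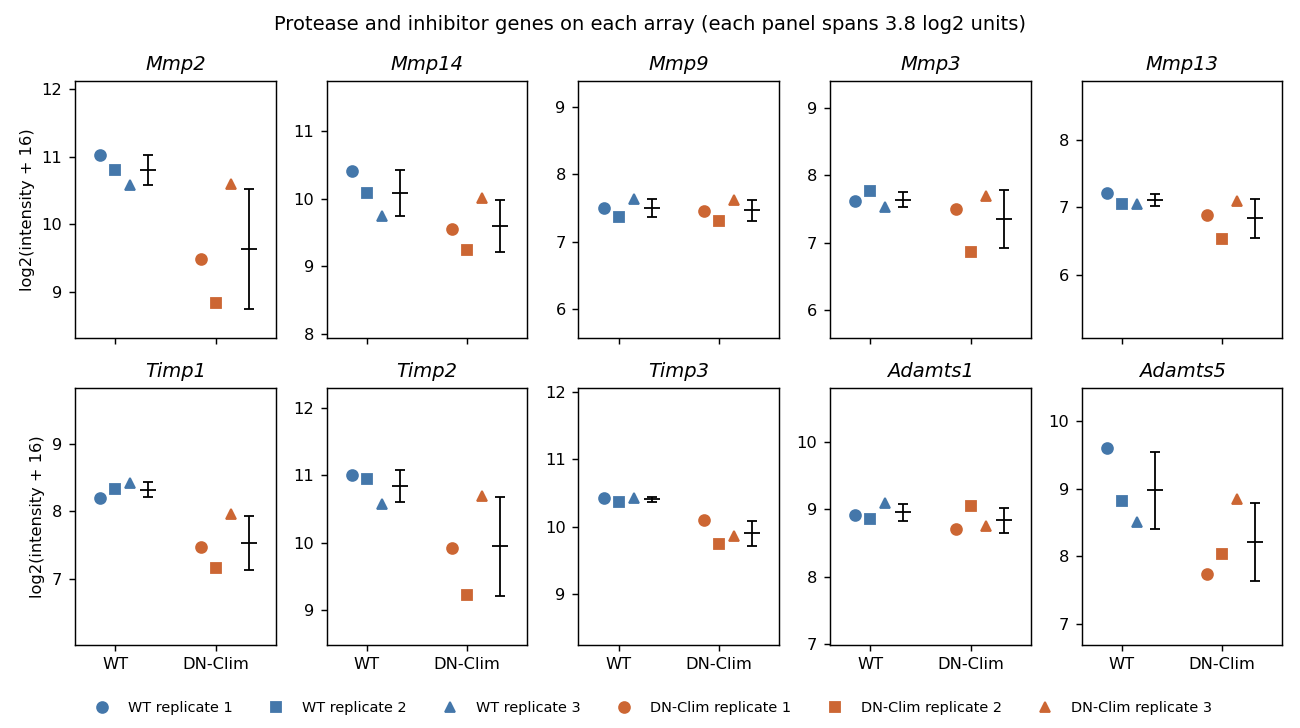
Log2(intensity + 16) of the 10 genes on each array, WT in blue and DN-Clim in orange, with the replicate shown by the marker and the group mean ± SD (n = 3) in black. Timp1 and Timp3 do not overlap between the groups, while DN-Clim replicate 3 lies within or beside the WT values for Mmp2, Mmp14 and Timp2.

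Mmp2, gelatinase A, a secreted enzyme that cuts denatured and basement membrane collagens, had the largest difference of the 10 (probe set 10573924). It read 11.03, 10.80 and 10.58 in WT replicates 1, 2 and 3, and 9.49, 8.84 and 10.59 in DN-Clim replicates 1, 2 and 3. DN-Clim replicates 1 and 2 were well below every WT array, and DN-Clim replicate 3 was level with the lowest WT array. The means were 10.80 ± 0.23 (SD, n = 3) in WT and 9.64 ± 0.89 (SD, n = 3) in DN-Clim. The difference of -1.16 (SE 0.385, 95% interval -2.03 to -0.30) put the DN-Clim mean 2.24-fold below WT and did not pass (adjusted p = 0.723). In these whole-cornea samples, fewer cells of a type and less RNA per cell cannot be told apart. The median of the keratocyte and stromal list moved with Mmp2. Its departures from the WT mean were -1.15, -1.80 and -0.01 on DN-Clim replicates 1, 2 and 3, where those of Mmp2 were -1.32, -1.96 and -0.21. Of the 14 genes in that list 13 were lower in the DN-Clim mean and 1, Ptgds, was higher (0.73). The part of the stromal and lens signals in the Mmp2 difference was not tested.

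Mmp14, the membrane-anchored activator of Mmp2 (probe set 10415052), showed the same order of arrays with a smaller spread. It read 10.41, 10.09 and 9.74 in WT, against 9.55, 9.24 and 10.01 in the DN-Clim samples replicates 1, 2 and 3. The lowest WT array was the one labelled replicate 3, and DN-Clim replicate 3 lay inside the WT range. The difference of -0.48 (SE 0.255, adjusted p = 0.921) had a 95% interval from -1.05 to 0.09. It was -0.31 without WT replicate 1 and -0.65 without WT replicate 3.

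Within arrays, Mmp2, Mmp14 and Timp2 did not depart from WT by equal amounts. Relative to its WT mean, the log2 ratio of Mmp2 to Mmp14 was -0.78, -1.13 and -0.14 on DN-Clim replicates 1, 2 and 3, with WT between -0.10 and 0.11. The ratio of Mmp2 to Timp2 was -0.40, -0.35 and -0.07 on the same arrays. The ratio of Mmp14 to Timp2 was 0.39, 0.78 and 0.07, the opposite sign. The larger ratio departures were therefore on DN-Clim replicates 1 and 2, and they are descriptions with no test.

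Mmp9, gelatinase B, known from epithelial wound repair and from neutrophils, was dim and alike in both groups (probe set 10478633). It read 7.50, 7.37 and 7.62 in WT, against 7.45, 7.31 and 7.62 in the DN-Clim samples. The groups overlapped, with DN-Clim replicate 2 slightly below the lowest WT array. The difference was -0.04 (SE 0.182), with a 95% interval from -0.45 to 0.37, and its sign turned under quantile normalization and median centring. Neutrophil markers had a median difference of -0.09 over 10 genes, but their array medians went in opposite directions. These were -0.22, -0.45 and 0.37 from the WT mean on DN-Clim replicates 1, 2 and 3.

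Mmp3, stromelysin 1, and Mmp13, an interstitial collagenase, were also dim (probe sets 10583071 and 10583044). Mmp3 read 7.63, 7.76 and 7.54 in WT, against 7.51, 6.87 and 7.69 in the DN-Clim samples. Mmp13 read 7.21, 7.05 and 7.05 in WT, against 6.89, 6.53 and 7.10 in the DN-Clim samples. In both genes the lowest value was on DN-Clim replicate 2, and DN-Clim replicate 3 lay within the WT range. The differences were -0.29 (95% interval -0.82 to 0.24) for Mmp3 and -0.27 (95% interval -0.72 to 0.19) for Mmp13. As a guide to dim signal, chosen after the data were examined, 1035 probe sets of olfactory receptors were taken, since these receptors serve mainly the nose. The central 90% of their means ran from 5.49 to 8.46, and the means of Mmp9 (7.48), Mmp3 (7.50), Mmp13 (6.97) and Timp1 (7.92) lay inside it. Probes differ in brightness for equal RNA, so the range is only a guide. The olfactory median departed from WT by -0.15 for DN-Clim replicate 1, by -0.42 for replicate 2 and by 0.30 for replicate 3. Dim probe sets as a class were thus lower on replicate 2 and higher on replicate 3, and the part of this shift in the Mmp3 and Mmp13 values was not tested.

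Mmp3 and Mmp13 lie in 1 cluster of metalloproteinase genes on mouse chromosome 9, where RefSeq places Mmp12 and Mmp1b between them and Mmp1a, Mmp10 and Mmp8 beyond Mmp3. Their upstream sequences are shown because both carry an AP-1 motif, the site through which stromelysin and collagenase genes are classically induced, and, nearer the start, TATA letters. The 250 bases before each RefSeq gene start (GRCm38.p6, plus strand) are at chr9:7445572-7445821 for Mmp3 and chr9:7272264-7272513 for Mmp13, with matches in capitals to the AP-1 motif (TGANTCA, both strands), the TATA motif (letters TATAAA on the gene's own strand) and the GC box (GGGCGG, both strands). No printed matches overlap.
Mmp3: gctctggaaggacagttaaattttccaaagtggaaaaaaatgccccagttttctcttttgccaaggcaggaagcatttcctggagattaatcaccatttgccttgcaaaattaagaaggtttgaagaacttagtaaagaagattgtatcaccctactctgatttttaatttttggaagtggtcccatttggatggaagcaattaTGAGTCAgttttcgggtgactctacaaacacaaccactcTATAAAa
Mmp13: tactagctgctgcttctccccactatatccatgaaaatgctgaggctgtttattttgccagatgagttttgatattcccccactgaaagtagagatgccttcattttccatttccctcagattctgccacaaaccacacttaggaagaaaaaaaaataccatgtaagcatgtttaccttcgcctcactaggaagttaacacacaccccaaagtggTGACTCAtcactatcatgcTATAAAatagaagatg
The AP-1 match begins 46 bases before the start in Mmp3 and 35 in Mmp13. Of 32851 RefSeq promoters 6.75% held the AP-1 letters and 7.59% the TATA letters in this window. Of the 7 members with an entry, these 2 held an AP-1 match, and TATA letters were found in them and in Adamts1. GC was 37.6% in Mmp3 and 40.4% in Mmp13, and the median over all promoters was 52.4%.

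Of the inhibitors, Timp1 and Timp3 separated the groups on these arrays and Timp2 did not. Timp1, a secreted inhibitor that also binds the Mmp9 precursor (probe set 10598976), read 8.20, 8.33 and 8.42 in WT, against 7.47, 7.16 and 7.96 in the DN-Clim samples. All 3 DN-Clim arrays were below the lowest WT array, and DN-Clim replicate 3 was the nearest to it. As given above, this probe set was in the range of olfactory receptors. The difference of -0.79 (SE 0.228, 95% interval -1.30 to -0.27) put the DN-Clim mean 1.73-fold below WT, and it did not pass (adjusted p = 0.651).

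Timp3, an inhibitor that stays bound to the matrix and also blocks ADAMTS proteases (probe set 10365482), had the tightest WT values of the 10 genes. It read 10.43, 10.37 and 10.42 in WT, a mean of 10.40 ± 0.034 (SD, n = 3). In DN-Clim it read 10.10, 9.74 and 9.86, a mean of 9.90 ± 0.18 (SD, n = 3). Unlike the other TIMPs, its value on DN-Clim replicate 3 lay between those of replicates 1 and 2. The difference was -0.50 (SE 0.179, 95% interval -0.91 to -0.10), or 1.42-fold, and did not pass (adjusted p = 0.767).

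Timp2, the partner of Mmp14 (probe set 10393559), followed Mmp2. It read 11.00, 10.94 and 10.57 in WT, against 9.92, 9.22 and 10.69 in the DN-Clim samples, with DN-Clim replicate 3 above the lowest WT array. The difference of -0.89 (SE 0.337, 95% interval -1.65 to -0.13), or 1.86-fold, did not pass (adjusted p = 0.793). The departures from the WT mean were -0.92, -1.62 and -0.14 on DN-Clim replicates 1, 2 and 3, again in the order of the stromal list median.

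The start regions of the 3 inhibitor genes are shown because all 3 means were lower in DN-Clim while their arrays ordered differently. The 250 bases before each RefSeq start (GRCm38.p6) are at chrX:20869916-20870165 (plus strand), chr11:118355412-118355661 (minus strand) and chr10:86300162-86300411 (plus strand), printed with the same motifs in capitals.
Timp1: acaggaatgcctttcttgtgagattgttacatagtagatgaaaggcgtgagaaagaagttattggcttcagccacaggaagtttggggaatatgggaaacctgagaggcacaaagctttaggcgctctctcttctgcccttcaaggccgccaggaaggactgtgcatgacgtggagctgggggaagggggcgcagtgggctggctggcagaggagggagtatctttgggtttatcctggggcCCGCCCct
Timp2: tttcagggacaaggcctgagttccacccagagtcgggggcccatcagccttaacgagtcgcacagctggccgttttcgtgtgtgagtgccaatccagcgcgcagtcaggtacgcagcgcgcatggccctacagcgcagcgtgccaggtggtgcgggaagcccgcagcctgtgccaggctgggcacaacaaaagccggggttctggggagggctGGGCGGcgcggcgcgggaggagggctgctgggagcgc
Timp3: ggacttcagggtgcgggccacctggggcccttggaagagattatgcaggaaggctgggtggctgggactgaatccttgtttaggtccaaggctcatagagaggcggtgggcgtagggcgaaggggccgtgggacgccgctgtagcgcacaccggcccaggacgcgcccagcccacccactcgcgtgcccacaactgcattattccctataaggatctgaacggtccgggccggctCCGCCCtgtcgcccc
Each held a GC box, forward in Timp2 and as its reverse complement CCGCCC in Timp1 and Timp3, and no AP-1 or TATA letters in this window. GC boxes stood in 32.7% of all promoters, and among members also in Mmp14 and Adamts1. GC was 54.4% in Timp1, 68% in Timp2 and 65.6% in Timp3.

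Timp1 and Timp3 each lie inside a synapsin gene, Syn1 and Syn3, in the RefSeq gene table. Syn1 read 8.32, 8.26 and 8.57 in WT, against 8.03, 9.19 and 8.63 in the DN-Clim samples, so that it was highest on the array where Timp1 was lowest. That array, DN-Clim replicate 2, also had the highest summed intensity of 9 retina and photoreceptor genes (16143). The part of that signal in the Syn1 value was not tested. Syn3 differed by -0.02 (95% interval -0.44 to 0.39). The host genes' probe sets thus did not show the order of the inhibitors' probe sets.

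The ADAMTS proteases differed from each other. Adamts5, an aggrecanase that cuts aggrecan and versican (probe set 10440534), read 9.61, 8.81 and 8.51 in WT, against 7.74, 8.02 and 8.85 in the DN-Clim samples. WT replicate 1 stood above the other WT arrays, and DN-Clim replicate 3 lay within the WT range. The difference was -0.77 (SE 0.35, 95% interval -1.56 to 0.02, adjusted p = 0.859), and it was -0.45 without WT replicate 1. Adamts1, its neighbour on chromosome 16 and also a versican-cutting enzyme (probe set 10440522), read 8.91, 8.85 and 9.10 in WT, against 8.71, 9.04 and 8.75 in the DN-Clim samples. It was the 1 member whose highest DN-Clim value was on replicate 2, and its difference was -0.12 (95% interval -0.54 to 0.30), with values from -0.23 to -0.051 when 1 array was left out: the highest without WT replicate 3 and the lowest without DN-Clim replicate 2.

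**Figure D2:**
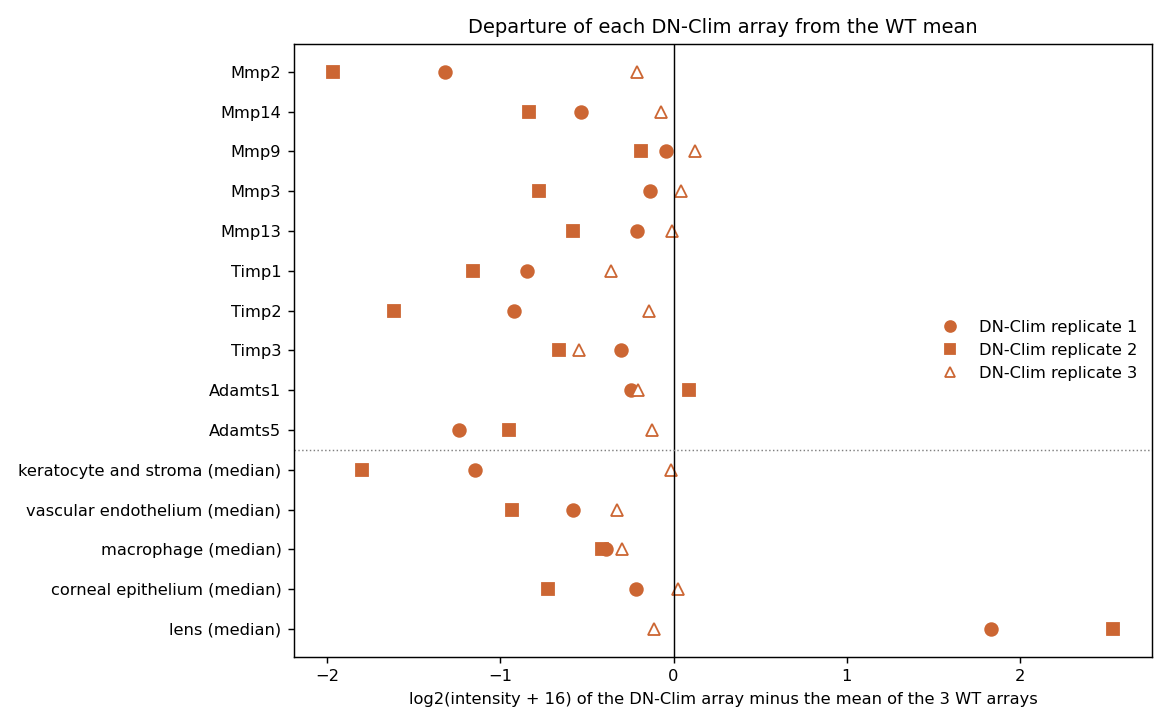
Departure of each DN-Clim array from the mean of the 3 WT arrays, in log2(intensity + 16), for the 10 genes and, below the dotted line, for the medians of 5 marker lists. Mmp2 and Timp2 depart mainly on replicates 1 and 2, as the stromal median does (-1.15, -1.80 and -0.01), whereas Timp3 departs on all 3 arrays.

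Leaving out DN-Clim replicate 3 changed the calls for 3 members. In the remaining 2 DN-Clim and 3 WT arrays, Mmp2 fell by 1.64 (SE 0.231, limma adjusted p = 0.0158), Timp2 fell by 1.27 (SE 0.24, adjusted p = 0.0431) and Timp1 fell by 0.999 (SE 0.17, adjusted p = 0.0293). In that fit 1.52% of all probe sets fell and 0.547% rose, and the overall median difference was -0.12. These p-values take no account of how that array was picked, and both remaining DN-Clim arrays carried the lens signal. Retina and photoreceptor genes also stood high on them, with a summed intensity of 10846 and 16143, against 4157 on DN-Clim replicate 3 and 2796 to 6445 in WT. The stromal list median in this fit was -1.44, and the part of these markers in the 3 calls was not tested. Adamts5 at -1.09 (adjusted p = 0.114), Mmp14 at -0.69 (adjusted p = 0.156) and Timp3 at -0.48 (adjusted p = 0.174) did not pass. Leaving out DN-Clim replicate 2 instead gave values nearer to 0 than over all 6 arrays for most members. These were Mmp2 at -0.76, Timp2 at -0.53, Mmp14 at -0.30, Mmp13 at -0.11 and Mmp3 at -0.046. Timp1 at -0.60, Timp3 at -0.42 and Adamts5 at -0.68 also moved toward 0. Mmp9 turned to 0.040, Adamts1 moved away from 0 to -0.23, and 0 of the 10 passed.

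DN-Clim replicate 3 taken alone against WT, and assumed to vary like WT, gave 0 of the 10 past the threshold, where 0.337% of all probe sets passed. Mmp2 then differed by -0.21 (95% interval -0.73 to 0.31) and Timp2 by -0.14 (95% interval -0.67 to 0.38). Timp3 differed by -0.55 (95% interval -0.96 to -0.13, adjusted p = 0.181), and Timp1 by -0.36 (95% interval -0.80 to 0.08, adjusted p = 0.325). This array also differed from WT in marker lists of other tissues. Its lens median was -0.11, with Crygd, a lens crystallin, at -2.88 and Birc7 at 0.71. Its pigment cell median was -1.18, where Dct, a melanin enzyme, fell by 2.34 (adjusted p = 0.0361). Its skeletal muscle median was 0.79, where Tnnt3, a fast-muscle troponin, rose by 2.18 (adjusted p = 0.0404). The olfactory median was 0.30. Their part in the values of the 10 genes on this array was not tested. Array by array, Timp3 stood at -0.30, -0.66 and -0.55 from the WT mean on DN-Clim replicates 1, 2 and 3. All these departures share the same 3 WT arrays.

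The medians of other marker lists were low on all 3 DN-Clim arrays, as Timp3 was, but not every gene in them was. On DN-Clim replicate 3, the pericyte gene Cspg4 (0.47), the vascular gene Esam (0.21) and the macrophage gene Fcgr1 (0.12) were among those above the WT mean. The 13 macrophage genes all had lower DN-Clim means, with array medians of -0.39, -0.41 and -0.29 (summed intensity 4256 to 5043 in WT and 3138 to 3440 in DN-Clim). The 12 vascular endothelium genes had 11 lower means and array medians of -0.58, -0.93 and -0.33 (summed intensity 5906 to 6012 in WT and 3279 to 4249 in DN-Clim), and 1 of them, Emcn, fell past the threshold. The 9 pericyte and smooth muscle genes were all lower in the mean, with array medians of -0.33, -0.80 and -0.33 (summed intensity 4106 to 5998 in WT and 2387 to 3228 in DN-Clim). No marker of these lists was at 0, which, as said above, does not show which cells were present. The part of these marker signals in the Timp1 and Timp3 values was not tested.

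**Figure D3:**
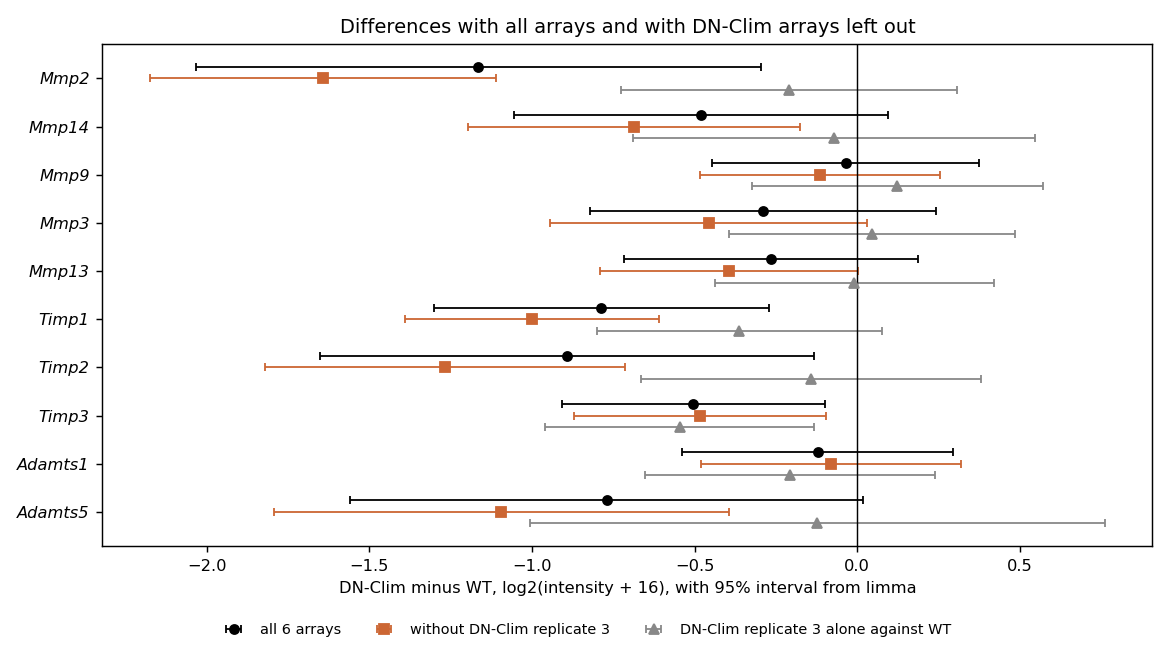
DN-Clim minus WT with the 95% interval from limma, in log2(intensity + 16), for all 6 arrays (circles), without DN-Clim replicate 3 (squares) and for that array alone against WT (triangles). The 3 fits share the same WT arrays, and the value for all 6 arrays lies between the other two for each gene. The Mmp2 interval without DN-Clim replicate 3 runs from -2.17 to -1.11, and that of the array alone from -0.73 to 0.31.

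By likeness over the 6 arrays, among 11614 probe sets, Mmp2, Timp2, Timp3 and Timp1 each had a different closest gene. Mmp2 and Timp2 shared Phldb2 among their next ones. Mmp2 was most like Lama2, the laminin chain of muscle and mesenchymal basement membranes (r = 0.999), then Gnb4 and Phldb2. Timp2 was most like Bmper, a secreted BMP regulator (r = 0.997), then Adam33 and Phldb2. Timp3 was most like Gabarap, an autophagy protein (r = 0.997), then Cdh5, the cadherin of vascular endothelium, and Penk. Timp1 was most like Calml3, an epithelial calmodulin-like protein (r = 0.996), then the chemokine Cxcl14 and Sik2. These are descriptions over 6 arrays, of which DN-Clim replicates 1 and 2 stood apart. Because each gene was picked as among the closest of 11614 probe sets, a high r and a shared array order follow from the picking. Calml3 read 12.55, 12.57 and 12.62 in WT, against 12.15, 12.03 and 12.37 in the DN-Clim samples, the same order as Timp1. Cdh5 read 9.20, 8.80 and 9.06 in WT, against 8.05, 7.15 and 7.43 in the DN-Clim samples, the same order as Timp3. The higher-ranked Gabarap did not fully share that order.

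The wider protease system was described from lists of related genes, in none of which a gene passed limma's adjusted threshold with all 6 arrays. At an unadjusted p under 0.05, the number lower was 1 of 17 other metalloproteinases, 2 of 16 other ADAMTS genes, 3 of 22 inhibitors and activators, 8 of 20 matrix substrates and 1 of 15 AP-1 and cytokine genes, and 0 genes of these lists were higher. Over all probe sets 4.49% were lower at that limit, so that 1 of 17 and 1 of 15 lie near the background. Of 18 other metalloproteinases 17 were measured, 10 lower and 7 higher in the DN-Clim mean, with a median of -0.06. Mmp23, a membrane-linked member, differed by -1.04, Mmp16, a membrane-type enzyme, by -0.43 and Mmp1a, a collagenase, by -0.39. Without DN-Clim replicate 3, Mmp23 was the 1 of the 17 that fell (-1.52, adjusted p = 0.0185), where 1.52% of all probe sets fell. Of 17 other ADAMTS genes 16 were measured, 9 lower and 7 higher, with a median of -0.03. Adamts12 differed by -0.71, Adamts10 by -0.58 and Adamts6 by -0.53.

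Among 22 measured inhibitors, activators and clearance factors, 19 were lower and 3 higher, with a median of -0.17. A2m, alpha-2-macroglobulin, a broad trap for proteases, read 12.49, 12.69 and 12.40 in WT, against 10.73, 10.33 and 12.69 in the DN-Clim samples. Its difference was -1.27 (adjusted p = 0.819), and the value on DN-Clim replicate 3 was level with the highest WT array. Thbs2, a thrombospondin that binds Mmp2 for uptake, differed by -1.23, and Lrp1, the receptor for that uptake, by -0.62. Without DN-Clim replicate 3, A2m (-1.99, adjusted p = 0.00446) and Thbs2 (-1.88, adjusted p = 0.0162) fell. They were 2 of the 22, beside 1.52% of all probe sets in that fit.

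Matrix proteins on which these enzymes act had a more negative median difference than the protease lists, a description with no test. Of 20 measured substrates 17 were lower and 3 higher, with a median of -0.71. Col3a1, a fibrillar collagen, differed by -1.48, Bgn, biglycan, by -1.25 and Fmod, fibromodulin, by -1.21. Array by array, the list stood at -0.87, -1.20 and 0.03 in DN-Clim replicates 1, 2 and 3. Without DN-Clim replicate 3, 7 of the 20 fell, beside 1.52% of all probe sets in that fit. They were Col3a1 (-1.92, adjusted p = 0.0125), Vcan, the versican that ADAMTS proteases cut (-1.45, adjusted p = 0.0127), Fn1, fibronectin (-1.36, adjusted p = 0.0263), the collagen gene Col1a2 (-1.57), and the proteoglycan genes Bgn (-1.84), Lum (-1.49) and Dcn (-1.17). The stromal list and this list share genes, so they are not separate observations.

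Of 15 AP-1 subunits and inducing cytokines, 9 were lower and 6 higher, with a median of -0.06, and 0 passed in either fit. Egr1, an immediate early transcription factor, differed by -0.76, Fos, an AP-1 subunit, by -0.54 and Fosl2, another subunit, by -0.52. Egr1 read 9.63, 9.24 and 9.06 in WT, against 8.51, 8.45 and 8.68 in the DN-Clim samples, with no overlap between the groups. In all, 2 of the 15 genes had every DN-Clim value below every WT value, as had 6.95% of all probe sets. At an unadjusted p under 0.05 Egr1 was the 1 gene of this list.

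**Figure D4:**
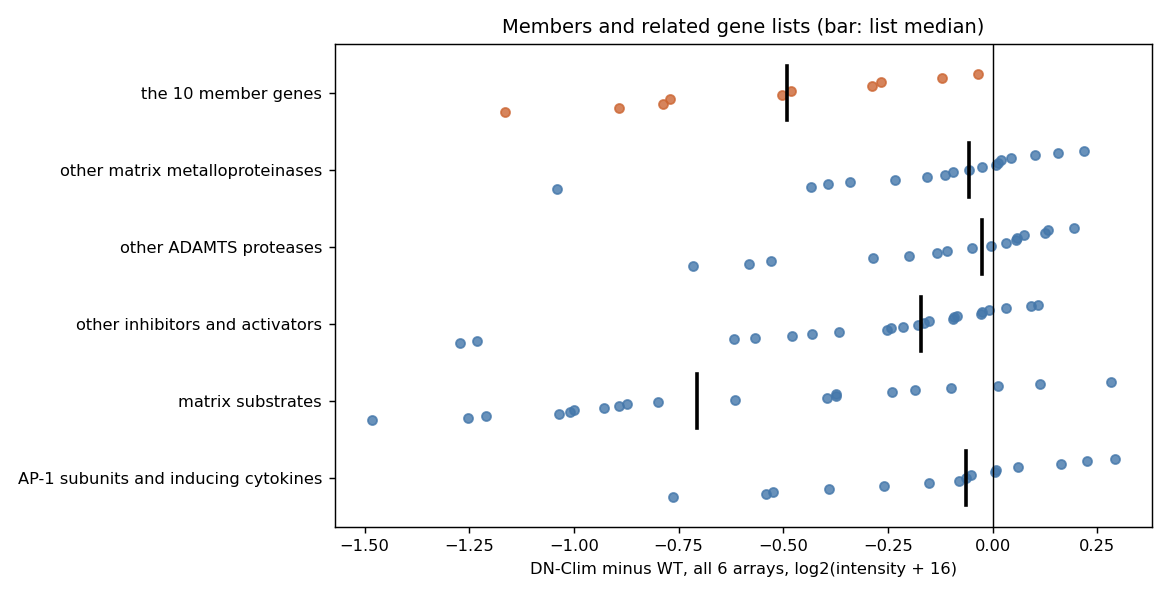
DN-Clim minus WT over all 6 arrays, in log2(intensity + 16), for the 10 genes (orange) and 5 lists of related genes (blue), 1 point per gene in order of its difference, with a bar at each median. The medians are -0.49 for the 10 genes, -0.71 for matrix substrates and between -0.17 and -0.03 for the other lists.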

How the data were processed

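Whole-cornea RNA of 6 samples was hybridised to 1 Affymetrix Mouse Gene 1.0 ST array each. The authors deposited probe set intensities on a linear scale, made with Affymetrix Expression Console 1.1 and PLIER per the submitters' processing notes. How background was corrected and arrays scaled, and whether an offset was added, is not given in the sources used here. Intensities were taken as log2(intensity + 16), which understates changes of dim genes. The array medians spanned 0.267, under the 0.5 at which scaling was planned, so values were kept as deposited. GEO's platform annotation paired 21789 of the 35557 probe sets with 1 symbol, 1621 with several and 12147 with none.

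All 23410 probe sets with a gene were fitted with limma 3.58.1 in R 4.3.3, taking DN-Clim minus WT, and p-values were adjusted by Benjamini-Hochberg with 0.05 as the threshold. Every adjusted p and interval comes from limma. On simulated data of the same size, 3 DN-Clim and 3 WT arrays, the fit recovered 38% of 2-fold, 80% of 4-fold and 95% of 8-fold changes, with 6 false calls. These rates describe the simulated data only. In the measured data DN-Clim replicate 3 stood apart from the other DN-Clim arrays. Whether the rates hold for such arrays was not tested, so they are not the power of the real comparison.

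The genes, lists and tests were chosen with earlier results of these data known. All 10 genes are named. Of each list of related proteases, inhibitors and substrates, the 3 genes with the largest difference are named, with those that passed. Of marker lists, only genes set beside a result are named. Likeness was Pearson's r over the 6 arrays. Alternatives were other offsets, scalings, filters, priors and weights, the replicate number as a block, and left-out arrays.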

Additional observations from a re-analysis of the deposited data

How the results depend on the processing

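Across 16 alternatives, 141 of 156 comparisons of the 10 genes kept their sign and their call, 9 gained a call and 6 changed sign. With all 6 arrays 3 probe sets passed, and the count was 1 under quantile normalization, 0 over all probe sets of the table, 5 with a trended robust prior and 79 with DN-Clim replicate 3 alone. Leaving out 1 array gave 0 to 483 probe sets and 0 to 3 of the 10 genes, the highest values without DN-Clim replicate 3. Array weights gave 9004 probe sets and 6 of the 10 genes (Mmp2, Mmp14, Timp1, Timp2, Timp3 and Adamts5). The estimate of these weights stopped before it converged and gave DN-Clim replicate 1 a weight of 34.9 against 0.121 to 1.95 for the others. Mmp9 turned to 0.063 under quantile normalization, 0.035 under median centring and 0.12 with DN-Clim replicate 3 alone, and ran from -0.11 to 0.040 when 1 array was left out. Mmp3 turned to 0.046 with DN-Clim replicate 3 alone. The causes were not tested. The replicate number as a block gave 9 probe sets and 0 of the 10 genes. Same-numbered samples are not known to share more than a number. Their deviations from the group means correlated at 0.017, -0.206 and -0.436, and no sample correlated best with its own number. This check cannot exclude a pairing, because DN-Clim replicates 1 and 2 stood apart from replicate 3 and that split weighs on these values. The filter on dim probe sets left no value for Mmp9, Mmp3, Mmp13 and Timp1. A mean over probe sets of a gene was not run, because each gene had 1. Signal near that of olfactory receptors limits what Mmp9, Mmp3, Mmp13 and Timp1 can show.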
